A study of Mus musculus with 8 samples.

Results

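The growth hormone axis of the liver runs from the growth hormone receptor through the kinase JAK2 and the transcription factors STAT5A and STAT5B to the hormone IGF1. It was followed here through 10 genes: Ghr, Jak2, Stat5a, Stat5b, Socs2, Igf1, Igfals, Igfbp2, Bcl6 and Cux2. They were picked by gene name, and all 10 were found among the 24545 rows of the deposited table, each in 1 row that shared its values with no other name. RNA sequencing of whole liver gave 8 libraries from male C57Bl/6J mice in 4 groups of 2: ApoE-Cyp7a1 transgenic mice given LPS, untreated transgenic mice, wild-type mice given LPS and untreated wild-type mice. LPS, the endotoxin of Gram-negative bacteria, was injected daily at 1.5 mg/kg for 7 days. Cyp7a1 encodes the enzyme that sets the rate of bile acid synthesis, and the labels describe the transgene as specific to liver. The age of the mice, the species of the transgene and any vehicle given to untreated mice were not given in the sources used here. Libraries of a group are called biological replicates, and nothing says more about their origin, so the p-values measure the spread between these libraries.

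Growth hormone from the pituitary binds its receptor on hepatocytes, JAK2 phosphorylates STAT5, and STAT5 turns on Igf1, Igfals and Socs2 in the nucleus. IGF1 circulates bound to IGF binding proteins, mostly in a complex with IGFBP3 and the acid-labile subunit encoded by Igfals, while SOCS2 feeds back on the receptor. Rodent liver reads the pattern of the hormone as a sign of sex: pulses in males keep male-biased genes on, and the more continuous female pattern turns on the repressor CUX2, while the repressor BCL6 is higher in males.

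STAT5 binds the palindrome TTCNNNGAA, which reads the same on both strands. The promoter windows of RefSeq (GRCm38.p6, 250 bases before to 50 after each start site) were searched for it because several of the 10 genes are STAT5 targets. Of the 10 genes, 9 were matched, with 17 windows, while Socs2 had no window and was not searched. The motif stood in 4 of the 17 windows (23.5%), against 2726 of 32851 windows of all genes (8.3%). All 4 belonged to Bcl6 and Igfals, and the stretches around a motif in each of the 4 are shown, 5′ to 3′ on the strand of the gene, with the motif in capitals.
Bcl6 first window, chr16:23988942-23988990, minus strand: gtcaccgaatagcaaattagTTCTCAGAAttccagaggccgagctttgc
Bcl6 second window, chr16:23981343-23981391, minus strand: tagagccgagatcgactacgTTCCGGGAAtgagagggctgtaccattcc
Igfals first window, chr17:24877594-24877636, plus strand: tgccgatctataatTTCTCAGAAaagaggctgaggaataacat
Igfals second window, chr17:24878153-24878201, plus strand: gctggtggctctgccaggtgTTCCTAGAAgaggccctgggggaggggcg
The motif lay at positions -118 to -110 from the start site in the first Bcl6 window and -88 to -80 in the second, which held 3 matches in all. In the Igfals windows it lay at -236 to -228 and -58 to -50. The letters TTCTCAGAA occurred both in a Bcl6 and in an Igfals window. The other windows did not hold these letters, and sites outside the windows were not searched.

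Cyp7a1 levels followed the transgene labels, every transgenic library lying above every wild-type one. Its genotype difference did not pass in limma, at 1.57 with LPS (adjusted p = 0.275) and 1.00 untreated (adjusted p = 0.68). Cyp7a1 stood at 73.5 and 70.2 FPKM in transgenic LPS livers and 64.7 and 78.5 FPKM in untreated transgenic livers, against 19.9 and 27.9 FPKM in wild-type LPS livers and 24.9 and 49.1 FPKM in untreated wild-type livers. FPKM is a fragment density per transcript length and per mapped fragments. Whether reads of the transgene enter that row was not given in the sources used here. Summed markers of macrophages, of neutrophils, and of stellate cells and matrix were higher with LPS. In each genotype 7 of 8 macrophage, 7 of 7 neutrophil and 6 of 8 stellate and matrix markers passed as higher in limma. The macrophage marker Clec4f and the stellate and matrix markers Des and Dcn did not. Cholangiocyte markers summed to 3.29 to 7.07 FPKM in LPS livers and 2.73 to 4.18 FPKM in untreated livers, with overlap. The summed FPKM of 8 macrophage markers was 995 to 1198 in LPS livers and 72.6 to 144 in untreated livers, that of 7 neutrophil markers 179 to 356 in LPS livers and 3.88 to 8.67 in untreated livers, and that of stellate and matrix markers 267 to 370 in LPS livers and 145 to 178 in untreated livers. The sum of 13 hepatocyte markers was 23340 to 26180 in LPS livers and 22660 to 33950 in untreated livers, with Alb listed at 0 in every library. Markers of pancreas and fat summed to 4.98 to 51.7 FPKM in transgenic LPS livers, 506 to 2346 in untreated transgenic livers, 22.7 to 75.7 in wild-type LPS livers and 33.1 to 612 in untreated wild-type livers. Replicate 1 had the higher sum in every group. The libraries that were lowest or highest of the 8 for the most features were replicate 1 of transgenic LPS (43.5%) and replicate 2 of untreated wild type (42.2%). The SD of log2 differences between replicates was 0.467 in transgenic LPS, 0.314 in untreated transgenic, 0.233 in wild-type LPS and 0.484 in untreated wild type.

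After 7 days of LPS the hepatic growth hormone axis of transgenic mice had 3 genes past the threshold, and that of wild-type mice had none. In transgenic livers the female-specific repressor gene Cux2 was higher with LPS, the receptor gene Ghr was lower and Stat5a was lower. The main output, Igf1, did not pass in either genotype. Changes were tested in limma on log2(FPKM + 1) over all 11463 features that reached 1 FPKM in at least 2 of 8 libraries, and a call is a Benjamini-Hochberg adjusted p under 0.05. All 10 genes passed that filter. The 3 of 10 called in transgenic mice stand beside 26.5% of all tested features, and the 0 of 10 in wild-type mice beside 21.6%, so the share of called genes in transgenic mice was near the background. At an unadjusted p under 0.05 limma gave 4 of the 10 genes and 4534 features in transgenic mice, and 0 of the 10 and 4097 features in wild-type mice. The median change of the 10 genes was 0.01 on the log2 scale in transgenic mice (all features -0.04) and -0.28 in wild-type mice (all features -0.05).

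**Figure D1:**
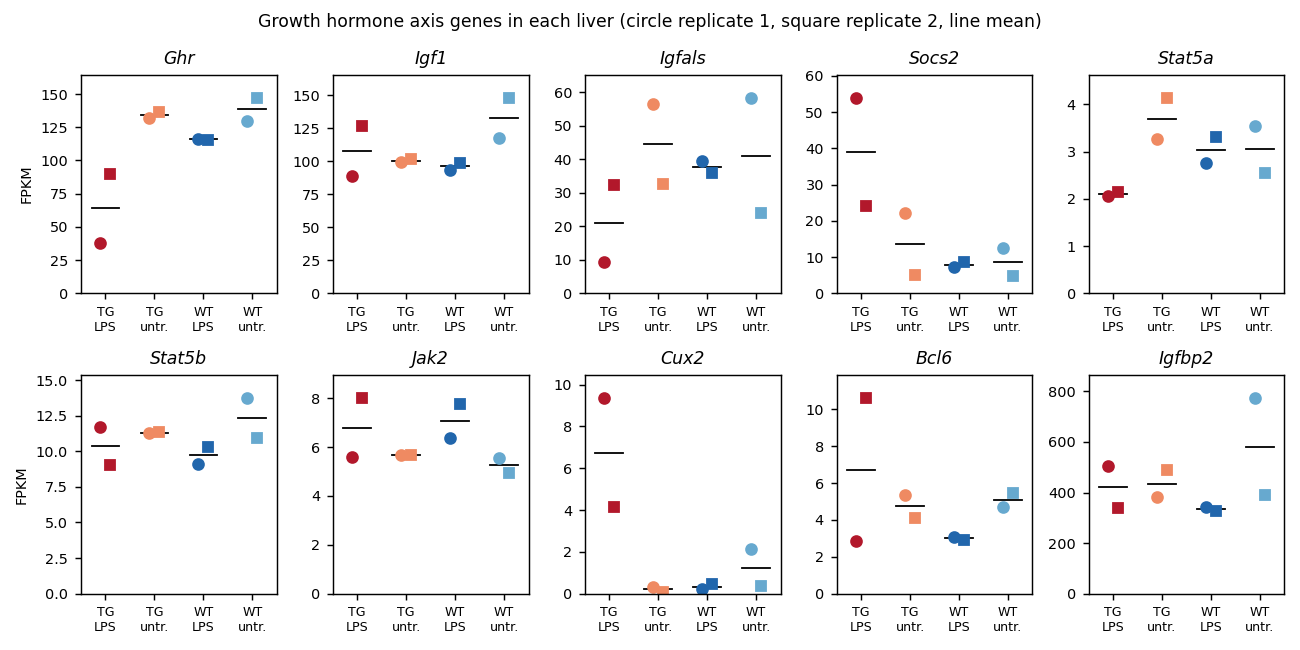
FPKM of the 10 growth hormone axis genes in each liver, with circles for replicate 1, squares for replicate 2 and a line at the group mean. TG is transgenic, WT is wild type and untr. is untreated. Ghr is lowest and Cux2 highest in the transgenic LPS group, while the Igf1 values of that group lie on both sides of those of untreated transgenic livers.

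Ghr encodes the receptor through which liver senses growth hormone (GRCm38 chromosome 15, 3317760 to 3583492, minus strand). Its level was 38.1 and 90.1 FPKM in transgenic LPS livers, against 132 and 136 FPKM in untreated transgenic livers. Wild-type livers had 116 and 115 FPKM with LPS, against 130.1 and 147 FPKM untreated. Every LPS library lay below every untreated library of its genotype, and replicate 1 of transgenic LPS was the lowest of all 8. The change was -1.18 on the log2 scale in transgenic mice (SE 0.34, adjusted p = 0.0407) and -0.25 in wild-type mice (adjusted p = 0.634). Without replicate 1 of transgenic LPS the change in transgenic mice was -0.57, and without replicate 2 it was -1.79. The call was lost in 10 of 16 alternative analyses. In limma the adjusted p was 0.089 with quantile normalization, 0.0523 with median-of-ratios scaling and 0.0523 with scaling to hepatocyte markers. It was 0.0726 with no filter and 0.0929 with only the groups compared. The call was also lost without either untreated transgenic library, either wild-type LPS library or replicate 1 of transgenic LPS. In bulk liver, fewer cells of a type and less RNA per cell cannot be told apart. The sum of hepatocyte markers was 25180 FPKM in the library with the lowest Ghr and 23340 FPKM in the other transgenic LPS library.

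Jak2 encodes the kinase bound to the receptor (chromosome 19, 29251828 to 29313080, plus strand). It stood at 5.59 and 8.00 FPKM in transgenic LPS livers and 5.68 and 5.67 FPKM in untreated transgenic livers, and at 6.36 and 7.77 FPKM in wild-type LPS livers and 5.57 and 4.94 FPKM in untreated wild-type livers. The transgenic groups overlapped, and in wild type both LPS libraries were above both untreated ones. Neither change passed, at 0.21 in transgenic mice (adjusted p = 0.438) and 0.36 in wild-type mice (adjusted p = 0.195). The wild-type change passed only when libraries were scaled to the hepatocyte markers (0.74, adjusted p = 0.0194).

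The STAT5 genes are neighbouring paralogs on chromosome 11, Stat5a at 100859351 to 100885169 on the plus strand and Stat5b at 100780731 to 100850724 on the minus strand. STAT5B is the main form in liver, and STAT5A is better known from the mammary gland. Stat5a was at 2.07 and 2.14 FPKM in transgenic LPS livers, against 3.26 and 4.14 FPKM in untreated transgenic livers. It was at 2.76 and 3.31 FPKM in wild-type LPS livers, against 3.55 and 2.55 FPKM in untreated wild-type livers. The transgenic LPS libraries were the lowest of the 8, while the wild-type groups overlapped. Stat5a fell in transgenic mice by 0.59 on the log2 scale (SE 0.17, adjusted p = 0.0404), and the wild-type value was 0.00 (adjusted p = 0.993). The call was lost in 8 of 15 alternatives (refit range over all alternatives -0.78 to -0.46). These were no filter, median-of-ratios scaling and each that left out a transgenic library or a wild-type LPS library.

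Stat5b was the more abundant form in every library. Its level was 11.7 and 9.04 FPKM in transgenic LPS livers, 11.3 and 11.3 FPKM in untreated transgenic livers, 9.13 and 10.3 FPKM in wild-type LPS livers, and 13.7 and 11.0 FPKM in untreated wild-type livers. It varied 1.52-fold from the lowest to the highest library, the least of the 10 genes. The change was -0.12 in transgenic mice (adjusted p = 0.635) and -0.31 in wild-type mice (adjusted p = 0.236). The ratio of Stat5b to Stat5a, both per transcript length, was 5.66 and 4.21 in transgenic LPS livers, against 3.46 and 2.74 in untreated transgenic livers. In wild-type livers it was 3.31 and 3.10 with LPS, against 3.87 and 4.29 untreated. Annotated transcripts of the paralogs share 608 stretches of 50 bases, 14.7% of those of Stat5a and 11.1% of those of Stat5b, so reads from these parts cannot be placed with certainty. Stat5a also shares 72 exon bases (1.01% of its exons) with Stat3 on the other strand, and whether the authors counted by strand was not given in the sources used here.

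Socs2, a STAT5 target whose product damps signalling from the receptor (chromosome 10, 95385362 to 95417180, minus strand), had the highest levels in transgenic LPS livers. It stood at 53.9 and 24.1 FPKM there, against 22.1 and 5.15 FPKM in untreated transgenic livers. In wild-type livers it stood at 7.21 and 8.63 FPKM with LPS, against 12.6 and 4.69 FPKM untreated. The transgenic groups did not overlap, but the lower LPS library and the higher untreated library were close. The change in transgenic mice was 1.64 (SE 0.67, adjusted p = 0.11) and did not pass, and in wild-type mice it was 0.02 (adjusted p = 0.987). With a library left out the change in transgenic mice spanned 0.69 to 2.60. The ratio of Socs2 to Cish, another STAT5 target of the same family, was 3.77 and 4.50 in transgenic LPS livers and 1.86 and 0.417 in untreated transgenic livers. It was 0.749 and 0.730 in wild-type LPS livers and 0.940 and 1.78 in untreated wild-type livers.

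**Figure D2:**
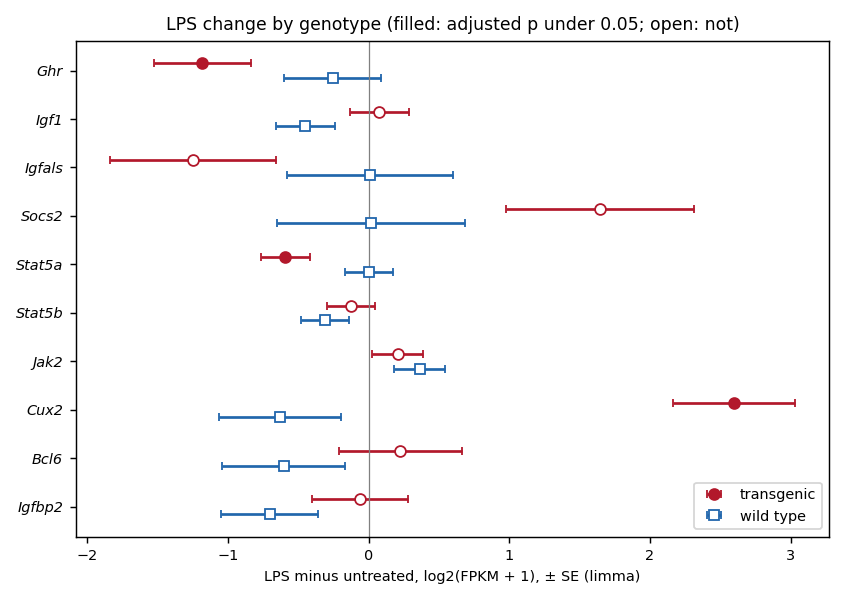
LPS change (LPS minus untreated) of the 10 genes on the log2(FPKM + 1) scale in transgenic mice (red circles) and wild-type mice (blue squares), with bars of 1 SE from limma. Filled symbols passed an adjusted p under 0.05: Cux2 at 2.60, Ghr at -1.18 and Stat5a at -0.59, all in transgenic mice.

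Igf1 encodes the endocrine growth factor of the axis (chromosome 10, 87858265 to 87937042, plus strand). Its level was 88.5 and 127 FPKM in transgenic LPS livers and 99.1 and 102 FPKM in untreated transgenic livers, so the LPS libraries lay on both sides of the untreated ones. It was 93.4 and 99.1 FPKM in wild-type LPS livers, against 117 and 148 FPKM in untreated wild-type livers, with no overlap. The changes were 0.08 (SE 0.21, adjusted p = 0.821) in transgenic mice and -0.45 (SE 0.21, adjusted p = 0.166) in wild-type mice. The transgenic LPS library with the higher Igf1, replicate 2, also had the higher Ghr. The 8 libraries spanned 1.67-fold.

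Igfals, which encodes the acid-labile subunit that holds IGF1 in serum (chromosome 17, 24865997 to 24882010, plus strand), was at 9.36 and 32.4 FPKM in transgenic LPS livers and 56.6 and 32.8 FPKM in untreated transgenic livers. In wild-type livers it was at 39.4 and 36.0 FPKM with LPS and 58.4 and 23.9 FPKM untreated. Replicate 1 of transgenic LPS was the lowest of all, and replicate 2 of that group lay just below the lower untreated library. The change of -1.25 in transgenic mice did not pass (SE 0.59, adjusted p = 0.16), and the wild-type value was 0.01 (adjusted p = 0.993). Without replicate 2 of transgenic LPS the change in transgenic mice was -2.09, and without replicate 1 it was -0.40.

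Igfbp2, which encodes a circulating binding protein (chromosome 1, 72824503 to 72852474, plus strand), was the most abundant of the 10 genes. Its level was 505 and 340.3 FPKM in transgenic LPS livers and 381 and 489 FPKM in untreated transgenic livers, with overlap. It was 344 and 329 FPKM in wild-type LPS livers, against 773 and 388 FPKM in untreated wild-type livers. Neither change passed, at -0.06 in transgenic mice (adjusted p = 0.92) and -0.70 in wild-type mice (adjusted p = 0.185). With a library left out the wild-type change spanned -1.20 to -0.21.

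Cux2 had the largest change of the 10 genes. CUX2 is a homeobox repressor that female mouse liver makes and that holds down male-biased genes (chromosome 5, 121856366 to 122050102, minus strand). Its level was 9.34 and 4.13 FPKM in transgenic LPS livers, against 0.328 and 0.0902 FPKM in untreated transgenic livers. Among wild-type livers it was 0.211 and 0.456 FPKM with LPS, against 2.12 and 0.350 FPKM untreated. The transgenic LPS livers held the highest values of the 8, and the wild-type groups overlapped. The change in transgenic mice was 2.60 on the log2(FPKM + 1) scale (SE 0.43, adjusted p = 0.00483), and in wild-type mice it was -0.63 (adjusted p = 0.335). The call in transgenic mice held in all 15 alternatives that tested the gene (2.09 to 4.47, adjusted p = 0.0022 to 0.0372). Only 3 libraries, both of transgenic LPS and replicate 1 of untreated wild type, reached 1 FPKM, so Cux2 passed the filter through the group in which it was high, and it was not tested with the filter at 5 FPKM.

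Bcl6 encodes a repressor that binds near STAT5 sites and is higher in male liver (chromosome 16, 23965052 to 23988852, minus strand). Its level was 2.84 and 10.6 FPKM in transgenic LPS livers, the lowest and the highest of the 8 libraries. The untreated transgenic livers stood between them at 5.36 and 4.12 FPKM. Wild-type livers had 3.09 and 2.91 FPKM with LPS, against 4.68 and 5.47 FPKM untreated, with no overlap. The changes were 0.23 in transgenic mice (SE 0.44, adjusted p = 0.739) and -0.60 in wild-type mice (adjusted p = 0.362). Without replicate 1 of transgenic LPS the transgenic change was 1.03, and without replicate 2 it was -0.57. The wild-type change stayed at -0.60 when either transgenic LPS library was left out, while its SE was 0.16 against 0.44. The transgenic LPS group then added nothing to the estimate of spread.

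Averaged over both genotypes, Cux2 alone of the 10 genes passed, at 0.98 (SE 0.31, adjusted p = 0.0391), and 36.4% of all features did. The call was lost in 9 of 14 alternatives, among them each that left out a library other than replicate 2 of transgenic LPS or replicate 1 of untreated wild type (0.64 to 1.60, adjusted p = 0.00934 to 0.12). This average covers a positive change in transgenic mice and a negative one in wild-type mice. Ghr was next at -0.72 (SE 0.24, adjusted p = 0.0528). It was -0.41 without replicate 1 of transgenic LPS and -1.02 without replicate 2.

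The genotypes were compared within each treatment, and Cyp7a1 itself did not pass in either comparison. Among untreated livers limma called 0 of the 10 genes and 0.0611% of all features, with 0 of the 10 and 631 features at an unadjusted p under 0.05. Cux2 in untreated livers was at -0.77 for transgenic against wild type (adjusted p = 0.991). Among LPS livers limma called 0 of the 10 genes and 0% of features, with 3 of the 10 genes, Ghr, Socs2 and Cux2, and 1402 features at an unadjusted p under 0.05. In LPS livers Cux2 was at 2.46 for transgenic against wild type (SE 0.43, adjusted p = 0.228), Socs2 at 2.06 (SE 0.67, adjusted p = 0.361), Ghr at -0.97 (SE 0.34, adjusted p = 0.365) and Igfals at -1.06 (SE 0.59, adjusted p = 0.493). For Cux2 and Socs2 both transgenic LPS libraries were above both wild-type LPS libraries, and for Ghr and Igfals both were below. These comparisons share their LPS libraries with the LPS changes given above.

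Whether LPS acted differently in the 2 genotypes was tested as an interaction, the LPS change in transgenic minus that in wild-type mice. It was called for 0 of the 10 genes and 0.00872% of features, with 2 of the 10, Cux2 and Stat5a, and 1189 features at an unadjusted p under 0.05. The interaction was 3.23 for Cux2 (SE 0.61, adjusted p = 0.285), 1.62 for Socs2 (adjusted p = 0.577), -0.93 for Ghr (adjusted p = 0.543) and -1.26 for Igfals (adjusted p = 0.617). Thus the calls in transgenic mice were not shown to differ from the wild-type values. Leaving out a library of transgenic LPS left that group with 1 library, so only effect sizes are given. The interaction was -1.54 for Ghr and 3.73 for Cux2 without replicate 2, and -0.32 and 2.72 without replicate 1. The genotype difference with LPS was -1.58 for Ghr and 2.96 for Cux2 without replicate 2, and -0.36 and 1.95 without replicate 1.

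The livers of the transgenic LPS group differed from each other in these genes. The median difference between replicates over the 10 genes was 0.789 on the log2 scale in transgenic LPS, against 0.209 over all features, and 5 of the 10 lay above the 90th percentile of all features in that group (0.622). Replicate 1 over replicate 2 was 0.423 for Ghr, 0.288 for Igfals and 0.268 for Bcl6, against 2.23 for Socs2 and 2.26 for Cux2. Replicate 1 of transgenic LPS was the lowest of 8 for 5 of the genes and the highest for 2, while 43.5% of all features had that library at an end. The corresponding median was 0.278 in untreated transgenic livers (all features 0.152), 0.141 in wild-type LPS livers (all features 0.103) and 0.343 in untreated wild-type livers (all features 0.273). Above the 90th percentile of their own group lay 2 of the 10 genes in untreated transgenic, 0 in wild-type LPS and 4 in untreated wild-type livers. Socs2 and Cux2 were 4.28 and 3.64 times higher in replicate 1 than in replicate 2 of untreated transgenic livers, and 2.68 and 6.06 times higher in replicate 1 of untreated wild-type livers.

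Of 16 other genes of the IGF system 15 had a value and 9 were tested. In transgenic mice 4 rose, Igfbp1, Igfbp3, Igfbp5 and Igfbp7, and none fell (median 0.63, all features -0.04), beside 16.0% of all features that rose and 10.5% that fell. In wild-type mice 2 rose, Igfbp3 and Igfbp7, and none fell (median 0.01, all features -0.05), beside 16.2% of all features that rose and 5.41% that fell, so that the wild-type share was near the background. Igfbp1 passed as a wild-type fall, 1 of 9, with only the groups compared, and with quantile normalization 1 other gene fell. The count of 4 was 2 without replicate 1 of transgenic LPS, 2 without replicate 1 of untreated transgenic and 1 without its replicate 2.

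Igfbp3, the main serum carrier of IGF1, stood at 40.4 and 47.5 FPKM in transgenic LPS livers, against 17.2 and 11.2 FPKM in untreated transgenic livers. It stood at 60.0 and 54.1 FPKM in wild-type LPS livers, against 14.4 and 13.0 FPKM in untreated wild-type livers. All LPS libraries were above all untreated ones, and the changes of 1.59 in transgenic mice (adjusted p = 0.00162) and 1.98 in wild-type mice (adjusted p = 0.000516) passed in every alternative. Igfbp3 in liver is known from nonparenchymal cells, and stellate and macrophage markers were higher in the same libraries. Their part in the result was not tested. The ratio of Igfbp3 to Igfals was 4.32 and 1.46 in transgenic LPS livers, 0.303 and 0.342 in untreated transgenic livers, 1.52 and 1.50 in wild-type LPS livers and 0.247 and 0.545 in untreated wild-type livers.

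Igfbp7, an IGF and insulin binding protein gene of vessels and stroma, was at 177 and 153 FPKM in transgenic LPS livers and 63.3 and 57.6 FPKM in untreated transgenic livers, a change of 1.43 (adjusted p = 0.0128). It was at 203 and 191 FPKM in wild-type LPS livers and 80.7 and 39.2 FPKM in untreated wild-type livers, a change of 1.79 (adjusted p = 0.00469). The LPS libraries did not overlap the untreated ones, and endothelial markers summed to 218 to 240 FPKM with LPS and 88.5 to 108 FPKM without it. In each genotype 5 of 6 endothelial markers passed as higher, and Clec4g did not. The part of endothelial cells in the Igfbp7 result was not tested. Igfbp5 was at 5.49 and 4.17 FPKM in transgenic LPS livers, against 2.86 and 2.07 FPKM in untreated transgenic livers (0.75, adjusted p = 0.0202). It was at 3.59 and 2.92 FPKM in wild-type LPS livers, against 2.47 and 2.24 FPKM in untreated wild-type livers, with no overlap (0.34, adjusted p = 0.215), and this change passed with scaling to hepatocyte markers (0.66, adjusted p = 0.0198). The transgenic calls of Igfbp5 and Igfbp7 ended without replicate 1 of transgenic LPS (0.59 and 1.33) and without replicate 2 of untreated transgenic, and that of Igfbp7 also without replicate 1 of untreated transgenic.

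Igfbp1, a binding protein gene of hepatocytes that insulin represses and fasting raises, was at 3961 and 364 FPKM in transgenic LPS livers, against 94.9 and 90.6 FPKM in untreated transgenic livers. It was at 99.4 and 166 FPKM in wild-type LPS livers, against 269 and 393 FPKM in untreated wild-type livers. The groups did not overlap in either genotype and were ordered in opposite ways. The change was 3.68 in transgenic mice (SE 0.93, adjusted p = 0.0245) and -1.33 in wild-type mice (adjusted p = 0.339). The transgenic value was 1.96 without replicate 1 of transgenic LPS. In limma the transgenic call ended with no filter (adjusted p = 0.0543) and with only the groups compared (adjusted p = 0.0628). The same call also ended without either untreated transgenic library. The wild-type change stayed at -1.33 without either transgenic LPS library, while its SE was 0.28 against 0.93. In replicate 1 of transgenic LPS Igfbp1 made up 75.2% of the summed FPKM of the 7 IGF binding protein genes, against 23.0% in replicate 2 and 6.24% to 25.3% in the other 6 libraries. The sum was 5270 FPKM in that replicate and 1432 to 2235 FPKM in the other 7 libraries. Igfbp4, at 42.5% to 60.8%, held the largest share in all 7.

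**Figure D3:**
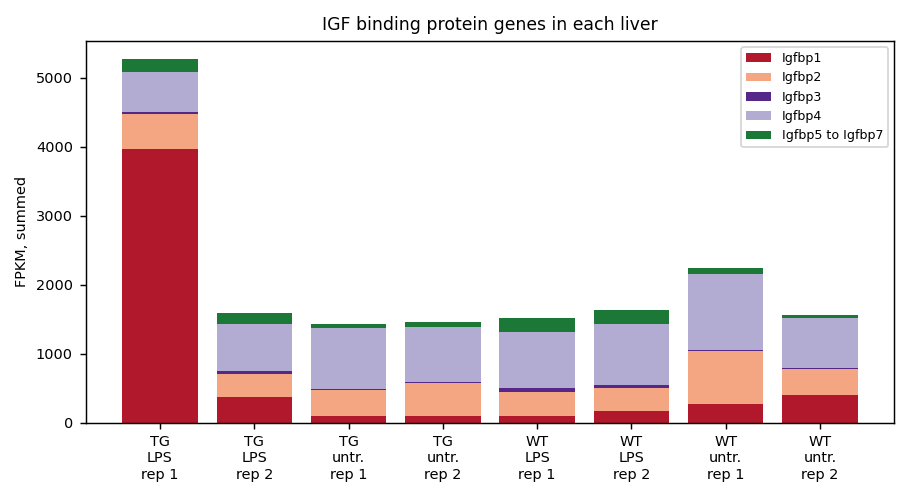
Summed FPKM of the IGF binding protein genes in each liver, with bars split by gene and starting at 0. TG is transgenic, WT is wild type and untr. is untreated. Replicate 1 of transgenic LPS reaches 5270 FPKM, of which Igfbp1 is 75.2%, while the other libraries lie between 1432 and 2235 FPKM.

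Of 27 other regulators of JAK and STAT signalling 23 were tested. In transgenic mice Ptpn1, Ptpn6, Il6ra and Osmr rose and Lifr fell, and in wild-type mice Ptpn1 and Ptpn6 rose and Lifr fell (median 0.20 in transgenic and -0.07 in wild-type mice). The 5 of 23 called in transgenic mice and the 3 of 23 in wild-type mice were near or below the 26.5% and 21.6% of all features called in the same mice. Without replicate 1 of transgenic LPS, or without replicate 2 of untreated transgenic, the 4 that rose in transgenic mice became 1, and without replicate 1 of untreated transgenic 2. The 1 that fell there became 3 with hepatocyte scaling or without either untreated wild-type library, 2 with quantile normalization, and 0 without replicate 2 of untreated transgenic. In wild-type mice the 2 that rose became 6 with hepatocyte scaling and 4 without replicate 1 of untreated wild type, and the 1 that fell became 2 without that library or with quantile normalization.

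Ptpn1 encodes a phosphatase that acts on JAK2. It was at 17.1 and 14.8 FPKM in transgenic LPS livers and 8.02 and 7.02 FPKM in untreated transgenic livers (0.99, adjusted p = 0.0126). It was at 16.9 and 16.9 FPKM in wild-type LPS livers and 8.46 and 5.19 FPKM in untreated wild-type livers (1.22, adjusted p = 0.00474). Ptpn6, which encodes SHP-1, a phosphatase mostly of blood cells, was at 18.3 and 21.2 FPKM in transgenic LPS livers and 12.03 and 11.0 FPKM in untreated transgenic livers (0.72, adjusted p = 0.0135). It was at 25.8 and 26.6 FPKM in wild-type LPS livers and 10.7 and 8.55 FPKM in untreated wild-type livers (1.36, adjusted p = 0.000718). Both genes were higher in all LPS libraries than in any untreated one. The transgenic call of Ptpn1 ended without replicate 1 of transgenic LPS or replicate 2 of untreated transgenic, and that of Ptpn6 without either untreated transgenic library. The macrophage and neutrophil markers were higher in the same libraries, and their part in the result was not tested.

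Lifr, the receptor gene for leukaemia inhibitory factor, was at 19.9 and 20.3 FPKM in transgenic LPS livers, against 37.6 and 37.9 FPKM in untreated transgenic livers (-0.87, adjusted p = 0.00615). It was at 14.5 and 16.0 FPKM in wild-type LPS livers, against 32.9 and 41.5 FPKM in untreated wild-type livers (-1.23, adjusted p = 0.00115), with no overlap in either genotype. Its transgenic call ended without replicate 2 of untreated transgenic (adjusted p = 0.051). Il6ra, the interleukin 6 receptor gene, was at 27.4 and 28.04 FPKM in transgenic LPS livers, against 18.8 and 12.6 FPKM in untreated transgenic livers (0.81, adjusted p = 0.0298). In wild-type livers it was at 25.3 and 29.2 FPKM with LPS, against 32.6 and 25.3 FPKM untreated (-0.08, adjusted p = 0.82). The Il6ra call ended without either transgenic LPS library, without replicate 2 of untreated transgenic and without either wild-type LPS library (0.53 to 0.82).

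Among liver transcription factors that share targets with STAT5, 14 were tested. In transgenic mice Foxa1, Foxa2, Cebpa and Onecut2 fell and Trim24 rose (median -0.27, all features -0.04). In wild-type mice Hnf4a, itself among the 13 hepatocyte markers used for scaling in 1 alternative, fell and none rose (median -0.20, all features -0.05). Called were thus 5 of 14 in transgenic mice, beside 26.5% of all features, and 1 of 14 in wild-type mice, beside 21.6%. The count of 4 was 1 without replicate 1 of transgenic LPS, 1 without replicate 2 of untreated transgenic, and 2 without its replicate 1 or either wild-type LPS library. The Trim24 call ended without either transgenic LPS library, replicate 2 of untreated transgenic or either wild-type LPS library, with no filter and with only the groups compared. The wild-type count of 1 was 0 with hepatocyte scaling or without either wild-type LPS library, 3 with quantile normalization, and 2 with only the groups compared or without any other single library.

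Foxa1, a pioneer factor of liver, was at 2.21 and 3.03 FPKM in transgenic LPS livers, against 7.05 and 10.9 FPKM in untreated transgenic livers (-1.44, adjusted p = 0.00451), and this call held in every alternative. Its paralog Foxa2 was at 4.38 and 8.15 FPKM in transgenic LPS livers, against 19.6 and 20.8 FPKM in untreated transgenic livers (-1.59, adjusted p = 0.016). Cebpa, which encodes a factor for mature hepatocytes, was at 33.5 and 66.2 FPKM in transgenic LPS livers, against 144 and 120.0 FPKM in untreated transgenic livers (-1.46, adjusted p = 0.0361). In wild-type mice these 3 genes were at 0.27, 0.02 and 0.26 (adjusted p = 0.454, 0.974 and 0.689). Without replicate 1 of transgenic LPS the changes of Foxa2 and Cebpa were -1.21 and -0.98 and did not pass, and both calls also ended without either untreated transgenic library. That of Cebpa ended without either wild-type LPS library as well. Hnf4a was at 217 and 169.8 FPKM in transgenic LPS livers, against 247 and 199 FPKM in untreated transgenic livers (-0.21, adjusted p = 0.512). It was at 144 and 146 FPKM in wild-type LPS livers, against 325 and 247 FPKM in untreated wild-type livers (-0.96, adjusted p = 0.0157). This call ended without either wild-type LPS library. It also ended with scaling to hepatocyte markers (-0.51), but Hnf4a is among those markers, so that scaling is no independent check of it.

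Genes known to be higher in male than in female liver fell, where they passed, in both genotypes. Of 14 tested, 7 fell and none rose in transgenic mice: Elovl3, the shared row of Cyp4a12a and Cyp4a12b, Slco1a1, Nudt7, Cyp2u1, Gstp1 and Susd4. In wild-type mice 4 fell and none rose, Elovl3, Cyp4a12a/Cyp4a12b, Cyp2u1 and Gstp1. The median change was -1.36 in transgenic mice and -1.13 in wild-type mice (all features -0.04 in transgenic and -0.05 in wild-type mice). Of all features 10.5% fell in transgenic mice and 5.41% in wild-type mice. The transgenic count was 4 without replicate 1 of transgenic LPS or replicate 2 of untreated transgenic, and 1 gene rose without replicate 2 of transgenic LPS, without either untreated wild-type library or with quantile normalization. The wild-type count was 1 with no filter, 12 without replicate 1 of untreated wild type, and 0 without its replicate 2, without either wild-type LPS library or with scaling to hepatocyte markers.

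Elovl3, a fatty acid elongase gene, was at 2.97 and 8.70 FPKM in transgenic LPS livers and 44.6 and 82.2 FPKM in untreated transgenic livers, a change of -3.31 (adjusted p = 0.00307). In wild-type livers it was at 13.4 and 8.07 FPKM with LPS and 35.3 and 62.9 FPKM untreated, a change of -2.08 (adjusted p = 0.0225). Cyp4a12a/Cyp4a12b, fatty acid hydroxylase genes, were at 21.3 and 43.7 FPKM in transgenic LPS livers and 144 and 143 FPKM in untreated transgenic livers (-2.20, adjusted p = 0.00539). The same row was at 31.4 and 29.5 FPKM in wild-type LPS livers and 63.5 and 122 FPKM in untreated wild-type livers (-1.50, adjusted p = 0.0264). For both rows every LPS library was below every untreated one, and the transgenic calls held in every alternative. Gstp1, a glutathione transferase gene with a close paralog, was at 101 and 176 FPKM in transgenic LPS livers and 481 and 523 FPKM in untreated transgenic livers (-1.90, adjusted p = 0.00383). It was at 211 and 186 FPKM in wild-type LPS livers and 348 and 534 FPKM in untreated wild-type livers (-1.12, adjusted p = 0.0349). Slco1a1, an organic anion transporter gene, was at 10.9 and 26.9 FPKM in transgenic LPS livers and 41.1 and 63.6 FPKM in untreated transgenic livers (-1.52, adjusted p = 0.035), and its change of -0.84 in wild-type mice did not pass (adjusted p = 0.194). The Slco1a1 call ended without replicate 1 of transgenic LPS (-0.90), without either untreated transgenic library and without either wild-type LPS library, and the wild-type calls of the other 3 ended without either wild-type LPS library or replicate 2 of untreated wild type. That of Gstp1 also ended without either untreated transgenic library.

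Genes known to be higher in female liver rose, where they passed. Of 20 names 9 passed the filter, so the counts cover those 9 alone, and a gene at low level without LPS could pass through the group in which it was high. In transgenic mice 5 rose, Sult1e1, Nipal1, Fmo2, Cyp17a1 and Cyp2c40, and in wild-type mice 1 rose, Sult1e1 (median 1.10 in transgenic and -0.17 in wild-type mice). Of all features 16.0% rose in transgenic mice and 16.2% in wild-type mice, and the 1 of 9 in wild type is below that. For transgenic against wild type the median of the 9 was -1.36 untreated (all features 7.5e-05), with Sult1e1 alone called. With LPS that median was -0.05 (all features -0.04). The transgenic rises thus started from levels that were mostly below wild type. The count of 5 was 3 without replicate 1 of transgenic LPS, replicate 1 of untreated transgenic or either wild-type LPS library, and 2 without replicate 2 of untreated transgenic. In wild-type mice 1 gene fell without replicate 2 of untreated wild type or with quantile normalization.

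Sult1e1, the estrogen sulfotransferase gene, was at 17.7 and 20.04 FPKM in transgenic LPS livers and 1.03 and 0.946 FPKM in untreated transgenic livers, a change of 3.32 (adjusted p = 0.000212). It was at 18.1 and 21.1 FPKM in wild-type LPS livers and 5.99 and 9.55 FPKM in untreated wild-type livers, a change of 1.26 (adjusted p = 0.00404). With LPS the ranges of the genotypes overlapped, and untreated the transgenic level was lower (-2.11, adjusted p = 0.0241), a call lost without either untreated transgenic library or either wild-type LPS library. Nipal1, a magnesium transporter gene, was at 21.2 and 13.8 FPKM in transgenic LPS livers and 3.14 and 0.814 FPKM in untreated transgenic livers (2.73, adjusted p = 0.00181). It was at 5.11 and 4.23 FPKM in wild-type LPS livers and 6.29 and 6.68 FPKM in untreated wild-type livers (-0.40, adjusted p = 0.463). Fmo2, a monooxygenase gene, was at 78.8 and 47.6 FPKM in transgenic LPS livers and 20.6 and 14.0 FPKM in untreated transgenic livers (1.79, adjusted p = 0.0104), and in wild-type mice its change was -0.45 (adjusted p = 0.4). The Fmo2 call ended without replicate 1 of transgenic LPS (1.43) and without replicate 2 of untreated transgenic (1.53). Cyp2c40, which has close paralogs, was at 0.834 and 2.86 FPKM in transgenic LPS livers and 0.235 and 0.253 FPKM in untreated transgenic livers (1.10, adjusted p = 0.0418). Its call was lost in 10 of 15 alternatives (0.56 to 2.27), and its wild-type levels of 2.45 to 3.51 FPKM overlapped the transgenic LPS range.

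**Figure D4:**
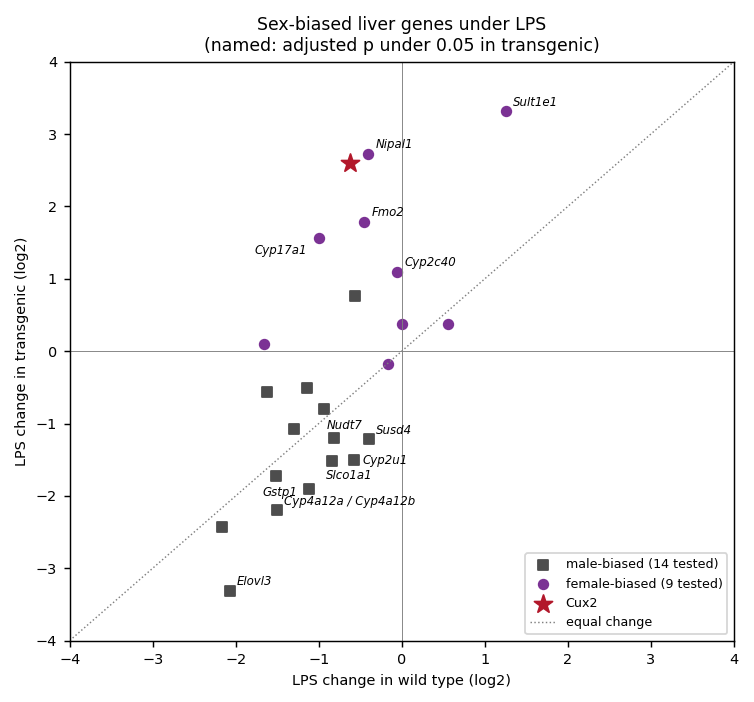
LPS change on the log2(FPKM + 1) scale in wild-type mice (x axis) and transgenic mice (y axis) for the tested male-biased genes (grey squares, 14), female-biased genes (purple circles, 9) and Cux2 (red star), with names for those past an adjusted p under 0.05 in transgenic mice. The dotted line marks equal change. Elovl3 lies lowest at -3.31 in transgenic and -2.08 in wild-type mice, and Cux2 and Nipal1 lie at 2.60 and 2.73 in transgenic mice with wild-type values of -0.63 and -0.40.

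The 5 features closest to the receptor gene across the 8 libraries were not the 5 closest to the hormone gene. Among 6598 features of at least 5 FPKM on average, those closest to Ghr by Pearson r were Met (0.995), Dera (0.995), Akr1c14 (0.994), Aox3 (0.992) and Ido2 (0.985). Met is the hepatocyte growth factor receptor gene, and Akr1c14 and Aox3 encode enzymes of liver. All 5 were lowest in replicate 1 of transgenic LPS, and without that library r was 0.968, 0.954, 0.972, 0.931 and 0.880 in the same order. Those closest to Igf1 were Csnk1g3 (0.964), Mrpl57 (0.954), Erap1 (0.936), Sfxn1 (0.934) and Nucks1 (0.933), and all 5 were highest in replicate 2 of untreated wild type, as Igf1 was. The same library was highest for Ghr, Met, Dera and Akr1c14. Igf1, Csnk1g3, Mrpl57, Erap1 and Sfxn1 were lowest in replicate 1 of transgenic LPS, as Ghr was, so the sets shared these end libraries in large part. These values describe the order of 8 libraries that share their groups.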

How the data were processed

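RNA sequencing of 8 mouse livers was analysed in the 4 groups that the labels give, with 2 libraries in each. The deposited values are FPKM, made by the authors with TopHat2 2.1.0, Bowtie2 2.2.6, Cufflinks and Cuffdiff 2.2.1 on mm10, per the submitters' processing notes. Libraries were made with a stranded mRNA kit, per the labels' protocols. Annotation, filters, use of strand and any library scaling were not given in the sources used here. Depth is unknown: values under 0.03 FPKM showed 1 shared step (within 0.05 on the log2 scale) in 11.0% to 63.2% of low features, so reads were not recovered, and no counting interval can be given.

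Of 24545 rows 6197 were 0 in all libraries. Repeated names (492) were reduced to the row with the higher sum, rows with identical values (549 sets) were joined, and 27 names turned into dates stayed unnamed, which left 17294 features. Values were fitted as log2(FPKM + 1) in limma 3.58.1 under R 4.3.3, with 1 mean per group over all 8 libraries, 4 residual degrees of freedom and a mean-variance trend. Features that reached 1 FPKM in 2 or more libraries were tested (11463), 2-sided, with Benjamini-Hochberg adjustment over all of them. The procedure was tested on simulated data. The settings varied were the pseudocount (0.1), the filter (none, or 5 FPKM), quantile normalization, median-of-ratios scaling, scaling to 13 hepatocyte markers, only the groups compared, a replicate block, and leaving out each library. Leaving out a library left 1 library in its group, which adds nothing to the estimate of spread. Calls gained or lost in such a fit can follow from the changed spread alone. A fold change on this scale understates the change of genes at low level.

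The 10 genes and the lists were chosen with earlier results of these data known. Named are all 10 genes, from each list up to 4 with the largest change averaged over genotypes among those called in either genotype, the 5 features most like Ghr and Igf1, and Cyp7a1. Other list genes, named without values, were chosen after their values were seen. Gene positions are from GENCODE vM21 (GRCm38), and promoter windows from RefSeq.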

Additional observations from a re-analysis of the deposited data

Results flagged for a closer look

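Groups of 2 libraries were too small for a search for single deviating values. Of the 69 tested genes of the 5 lists, 7 had LPS and untreated libraries that did not overlap in either genotype and were ordered in opposite ways, and the interaction was called for 0 of the 7. The share of all tested features ordered in this way was not counted. The 7 therefore cannot be set beside a background and are given as a description. They were Igfbp1, Nipal1, Cyp17a1, Trim24 and Egfr, higher with LPS in transgenic and lower in wild-type livers, and Tyk2 and Onecut1, ordered the other way. Igfbp1 and Nipal1 are the 2 of them whose values are given above. Igfbp1 was higher in both transgenic LPS livers than in both untreated transgenic livers, and lower in both wild-type LPS livers than in both untreated wild-type livers. The LPS change in transgenic minus that in wild-type mice was 5.02 on the log2 scale, and the interaction did not pass (adjusted p = 0.41). It was 6.74 without replicate 2 of transgenic LPS and 3.30 without replicate 1. Nipal1 was ordered in the same way, with an interaction of 3.13 that did not pass (adjusted p = 0.271). With a library left out the Nipal1 interaction spanned 2.54 to 3.73.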

How the results depend on the processing

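Of 29 LPS calls for named genes of the lists, 13 held in every alternative. Of the 10 axis genes, 3 were called for LPS in transgenic mice (1 with no filter, 1 with a filter of 5 FPKM, 1 with median-of-ratios scaling, and 1 to 3 with a library left out), 0 in wild type (1 with hepatocyte scaling, 0 to 1) and 1 averaged over genotypes (0 with a pseudocount of 0.1, with no filter or with a filter of 5 FPKM, 2 with hepatocyte scaling, 2 with the replicate block, 0 to 3). With a library left out, 0 to 2 were called for genotype with LPS and 0 to 2 for the interaction. Features called numbered 3034 in transgenic mice (1835 with a filter of 5 FPKM, 1233 to 3641 with a library left out), 2481 in wild type (1379, 1219 to 3453) and 4177 averaged (2698, 2645 to 4785). The genotype comparison of untreated livers called 7 (0 with no filter, 4 with hepatocyte scaling, 22 with only the groups compared, 2 to 44). With LPS it called 0 (1 with no filter, 1 with quantile normalization, 0 to 423). The interaction called 1 (0 with no filter, quantile normalization or median-of-ratios scaling, 2 with hepatocyte scaling, 2 with the replicate block, 0 to 276).

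The share of called features that were higher with LPS was 60.4% in transgenic mice (quantile normalization 53.8%, median-of-ratios scaling 69.9%), 75.0% in wild type (59.5% with quantile normalization, 98.6% with hepatocyte scaling) and 56.6% averaged (44.8%, 68.1% with median-of-ratios scaling, 85.3% with hepatocyte scaling). Hepatocyte scaling moved the median of all features in wild type to 0.33, against -0.05. In transgenic mice directions turned for Hnf4a (0.10 with quantile normalization) and Igfbp2 (0.18, and 0.036 with median-of-ratios scaling). In wild type they turned under quantile normalization for Ghr (0.026), Il6ra (0.00359), Socs2 (-0.023) and Stat5a (-0.25), under median-of-ratios scaling for Il6ra (0.00537) and Cyp2c40 (0.00695), and under hepatocyte scaling for Ghr (0.19), Stat5b (0.10), Il6ra (0.36) and Cyp2c40 (0.28). Averaged, Igf1 turned with quantile normalization (0.13) and hepatocyte scaling (0.040). With a library left out, transgenic values spanned -0.57 to 1.03 for Bcl6, -0.18 to 0.33 for Igf1, -0.34 to 0.22 for Igfbp2, -0.019 to 0.43 for Jak2 and -0.29 to 0.047 for Stat5b. Wild-type values spanned -0.31 to 0.82 for Cebpa, -0.25 to 0.13 for Cyp2c40, -0.51 to 0.55 for Foxa2, -0.62 to 0.64 for Igfals, -0.26 to 0.10 for Il6ra, -0.61 to 0.65 for Socs2 and -0.18 to 0.18 for Stat5a. The averaged value of Bcl6 spanned -0.59 to 0.21. The cause was not tested.

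Replicate numbers tie nothing in the labels, so the main fit did not pair libraries by number. Deviations of same-numbered libraries correlated at 0.0434 to 0.459 between groups, all positive. Replicate 1 also had the higher pancreas and fat sum in every group. What same-numbered libraries share was not tested. With the replicate block 4 of the 10 genes were called in transgenic mice, Socs2 being added (1.64, adjusted p = 0.0332), and Ghr was added to the averaged calls (-0.72, adjusted p = 0.0383). Male-biased genes that fell in wild type numbered 7 with the block, against 4, liver factors that fell there 2, against 1, and JAK and STAT regulators that fell in transgenic mice 2, against 1. With 2 libraries a group, a value that did not pass is no sign of no change, and no depth is known.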
